A study of Homo sapiens with 2 samples.

Results

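Spliceosome and hnRNP genes were taken as every gene whose symbol starts with SNRP, SF3A, SF3B, U2AF, PRPF, SRSF or HNRNP, leaving out HNRNPA1L2. This gave 72 genes of the 32738 in the count matrices, under 71 symbols because SRSF10 had a pair of gene identifiers. They comprised 12 SNRP, 3 SF3A, 6 SF3B, 3 U2AF, 13 PRPF, 12 SRSF and 23 HNRNP genes. The genes were followed in single cells of Nalm-6, an established line grown from a human B-cell precursor leukemia, here engineered with Tet-On constructs that doxycycline switches on. One library came from cells with the ETV6-RUNX1 (TEL-AML1) construct and 1 library from cells with the luciferase construct (LUC control), and both were induced with doxycycline at 500 ng/ml for 24 h and depleted of dead cells. There was 1 library per construct, so no difference between constructs had a replicate check, no test was possible, and differences of culture or library preparation cannot be told apart from the construct. All intervals below are exact 95% Poisson or binomial intervals and cover counting error only.

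Nuclear pre-messenger RNA is spliced by the spliceosome, which is built anew on each intron from small nuclear ribonucleoproteins (snRNPs). The SNRP genes encode the Sm proteins that form a ring on the small nuclear RNAs, and proteins particular to the U1 or U2 snRNP. SF3A and SF3B proteins belong to the U2 snRNP, which binds the branch point, and U2AF recognises the polypyrimidine tract and the 3′ splice site. PRPF proteins include components of the U4/U6.U5 tri-snRNP and of the active complex. SR proteins (SRSF) mostly promote the use of exons, and hnRNPs coat the nascent transcript and can act against SR proteins. The fusion joins ETV6, a repressor of the ETS family, to RUNX1, a transcription factor of blood development.

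The libraries held 43941536 UMIs in 2267 kept cells with ETV6-RUNX1 and 42762188 UMIs in 1870 kept cells of the LUC control. A UMI (unique molecular identifier) marks 1 captured poly-A transcript, and cells were kept with at least 1000 genes and at most 10% mitochondrially encoded UMIs. The median depth was 19219 UMIs per ETV6-RUNX1 cell and 22536 per control cell. All 10 B-cell precursor markers found in the matrices were measured. None was measured of the 7 T and NK, 6 erythroid and megakaryocyte, 4 plasma or mature B, or 6 fibroblast and epithelial markers found. The listed markers CD24, TRAC, JCHAIN and IGHG1 matched no gene symbol in the matrices. Of 8 myeloid markers 1 was measured, CST3. Of the kept barcodes, 7 occurred in both libraries.

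Levels are given as CPM, the UMIs of a gene scaled to 1000000 UMIs of its library or group of cells. Since each transcript is tagged at its poly-A end, CPM was not scaled by gene length, and it ranks tagged transcripts. A gene counted as measured if either library gave it 10 CPM or more, as was true for 62 of the 72 genes and for 5954 genes in all. SRSF12 had 0 UMIs with ETV6-RUNX1 and 1 in the control, and HNRNPLL had 0 in both, which allows, taken as 3 counts of the library's total, up to 0.0683 CPM with ETV6-RUNX1 and 0.0702 CPM in the control. The other 8 below the floor were HNRNPCL1, HNRNPU-AS1, HNRNPUL2-BSCL2, PRPF39, PRPF40B, SNRPN, U2AF1L4 and the SRSF10 entry ENSG00000215699. HNRNPU-AS1 is antisense to HNRNPU, and HNRNPUL2-BSCL2 is a read-through with HNRNPUL2. PRPF39, a U1-associated splicing factor, lay just outside the floor with 8.99 CPM in the ETV6-RUNX1 library and 8.28 CPM in the control library. PRPF3, a U4/U6 snRNP protein, lay just inside it with 12.2 CPM with ETV6-RUNX1 and 12.9 CPM in the control.

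Together the 72 genes made up 1.56% of all UMIs with ETV6-RUNX1 and 1.66% in the LUC control. HNRNP genes held 36.0% of that sum in both libraries, SNRP genes 33.4% in both, and SRSF genes 16.0% with ETV6-RUNX1 and 16.2% in the control. SF3B, PRPF, U2AF and SF3A shared the rest, with 5.99%, 4.64%, 3.10% and 0.867% in the ETV6-RUNX1 library. HNRNPA1, an abundant hnRNP that also shuttles to the cytoplasm, was the highest of the 62, at 1382 CPM with ETV6-RUNX1 and 1492 CPM in the control. Sm ring genes came next. SNRPE had 879 CPM with ETV6-RUNX1 and 927 CPM in the control, and SNRPF had 786 CPM with ETV6-RUNX1 and 850 CPM in the control. SNRPB, SNRPD1 and SNRPG lay between 630 and 670 CPM with ETV6-RUNX1 and between 671 and 692 CPM in the control. SNRPD2 had 566 CPM with ETV6-RUNX1 and 597 CPM in the control, whereas SNRPD3, the remaining measured member of the ring, had less than its ring partners, at 258 CPM with ETV6-RUNX1 and 280 CPM in the control. HNRNPA1 and several Sm genes have near-identical processed copies in the genome, and the sources used here do not say how reads were shared between such copies, so the levels of these genes are uncertain to that extent.

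Large core proteins were lower. PRPF8, the core of the U5 snRNP, had 34.7 CPM with ETV6-RUNX1 and 37.9 CPM in the control. SF3B1, the branch-point protein that is recurrently mutated in leukemias, had 66.1 CPM with ETV6-RUNX1 and 69.0 CPM in the control. The SF3B complex member SF3B2 had 173 CPM in both libraries. SF3A3, SF3A1 and SF3A2 had 60.2, 41.6 and 33.2 CPM with ETV6-RUNX1 and 67.3, 43.3 and 37.1 CPM in the control. The small subunits SF3B5 and SF3B14 of the same complex had 325 and 291 CPM with ETV6-RUNX1, against 341 and 307 CPM in the control. U2AF1, which contacts the AG of the 3′ splice site, had 423 CPM with ETV6-RUNX1 and 436 CPM in the control, and its partner U2AF2 had 51.7 CPM in the ETV6-RUNX1 library and 55.9 CPM in the LUC library. In PRPF, PRPF38B had 127 CPM with ETV6-RUNX1 and 123 CPM in the control, and PRPF4B, a kinase, had 98.2 CPM with ETV6-RUNX1 and 97.6 CPM in the control. SRSF3, SRSF2 and SRSF7 led the SR proteins with 634, 398 and 376 CPM with ETV6-RUNX1 and 706, 445 and 425 CPM in the control. After HNRNPA1 the highest HNRNP genes were HNRNPA2B1, with 647 CPM with ETV6-RUNX1 and 720 CPM in the control, and HNRNPC, with 574 CPM with ETV6-RUNX1 and 592 CPM in the control.

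**Figure D1:**
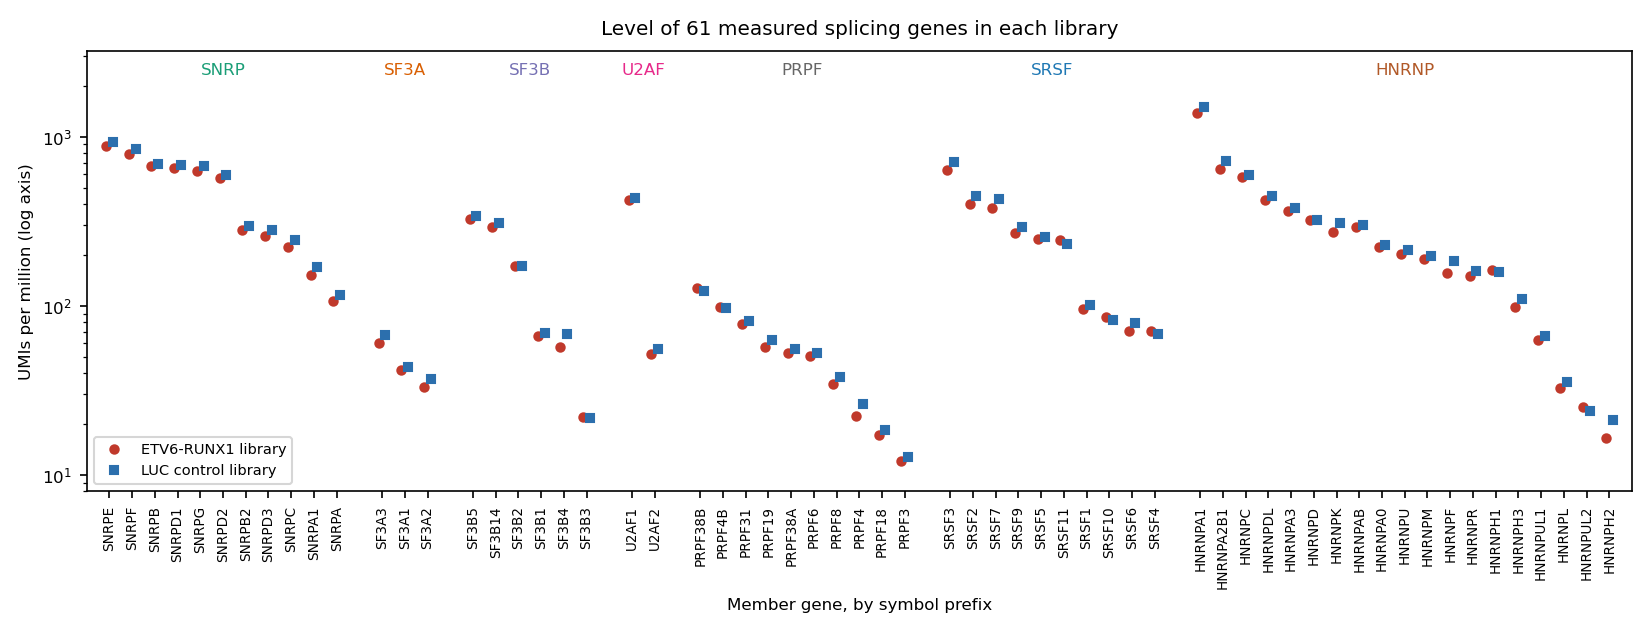
Level of 61 of the measured genes in CPM on a log axis, grouped by symbol prefix, with ETV6-RUNX1 as circles and LUC control as squares (1 library each). HNRNPA1 stood highest, at 1382 CPM with ETV6-RUNX1 and 1492 CPM in the LUC control, and the 2 libraries lay close together for every gene drawn.

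Between the libraries, these genes were on the whole slightly lower with ETV6-RUNX1. The median log2 ratio of ETV6-RUNX1 over LUC control was -0.08 over the 62 genes and -0.04 over all 5954 measured genes. The ratio lay above 0 for 9 of the 62 genes, against 36.2% of all measured genes. A difference was counted from a log2 ratio of 0.32 in size, a rise of 25% or a fall of 20%. By this measure there were 0 higher members, where 1.65% of all genes passed, and 1 lower member, where 3.31% of all genes passed. That gene was HNRNPH2, which binds G-rich RNA, with 16.5 CPM with ETV6-RUNX1 against 21.1 CPM in the control, a log2 ratio of -0.35 (-0.49 to -0.21). HNRNPH2 was smaller than 0.32 in size with TMM or median-of-ratios scaling, in cells thinned to 8700 UMIs, with phases given equal weight, and when ribosomal protein and mitochondrially encoded genes were taken out of the totals. No member passed 1.5-fold, where 0.185% of all genes were higher and 0.655% lower. TMM scaling moved all ratios up by 0.04, to a median of -0.04 for the members and of -0.003 for all genes.

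The families differed little from each other in this comparison. All 11 measured SNRP genes lay below 0 (median log2 ratio -0.10, range -0.16 to -0.05), as did all 3 SF3A and both U2AF genes. Of the 19 HNRNP genes 16 lay below 0, of 10 SRSF genes 7, of 11 PRPF genes 9 and of 6 SF3B genes 5. The largest ratios by size among SNRP genes were those of SNRPA1 (-0.16), SNRPC (-0.15), a U1 protein, and SNRPA (-0.12), which binds U1 RNA. In SF3A, SF3A3 and SF3A2 both had -0.16 and SF3A1 had -0.06. In SF3B the ratio of SF3B4 was -0.25 (-0.33 to -0.18), at 56.9 CPM with ETV6-RUNX1 against 67.8 CPM in the control. In PRPF the ratio of PRPF4, a U4/U6 protein, was -0.24 (-0.36 to -0.11), with 22.5 CPM with ETV6-RUNX1 and 26.4 CPM in the control, and PRPF19 and PRPF8 had -0.15 and -0.13. Among SR proteins, SRSF7 had -0.18, SRSF2 -0.16 and SRSF6 -0.16. In HNRNP, HNRNPF had -0.23 (-0.27 to -0.18) and HNRNPK -0.18 (-0.22 to -0.14). SRSF11 was the 1 gene whose interval lay above 0, at 0.08 (0.04 to 0.11), with 244 CPM with ETV6-RUNX1 and 232 CPM in the control. In all, 44 of the 62 intervals lay below 0 and 1 above, beside 1898 below and 776 above among the 5954 measured genes. These counts are not directly comparable, because intervals are shorter for genes with more UMIs. The median level was 163 CPM for measured members and 28.9 CPM for all measured genes with ETV6-RUNX1. In the control it was 171 and 29.7 CPM.

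**Figure D2:**
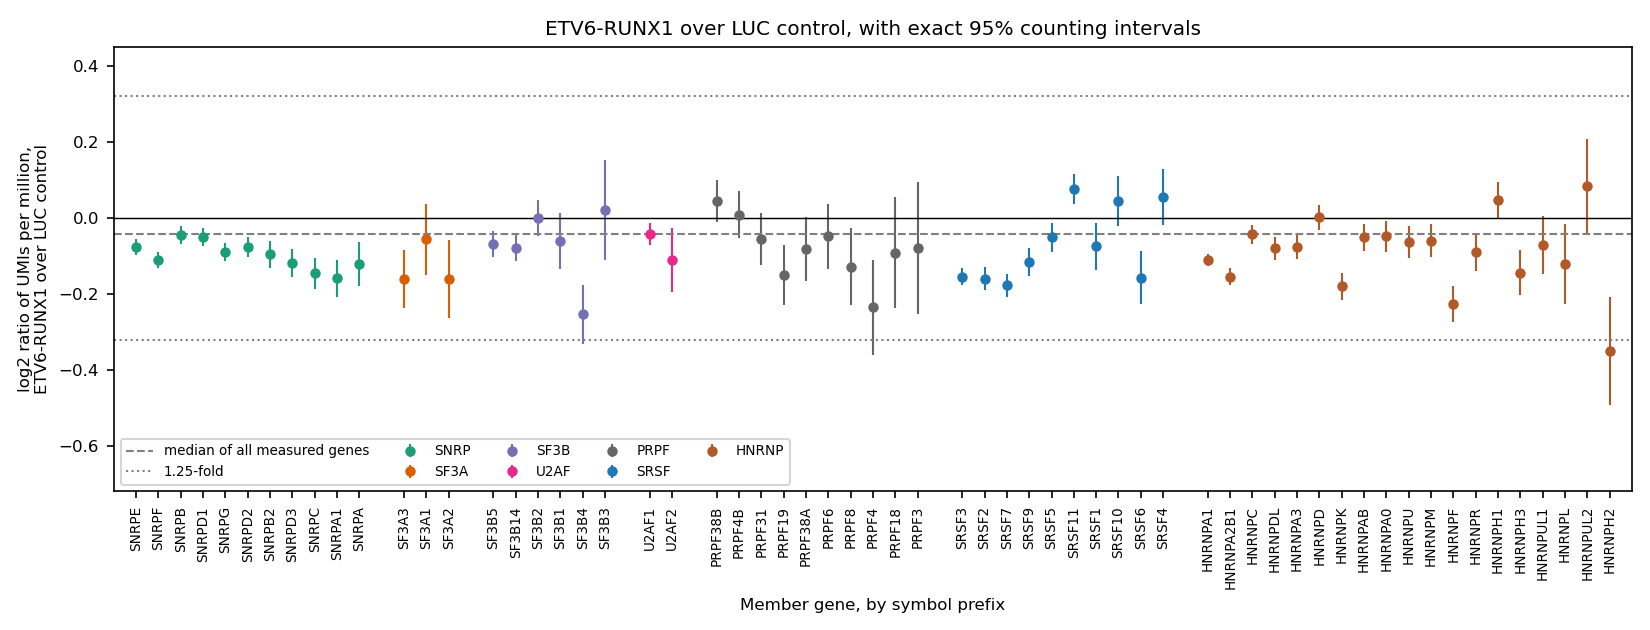
Log2 ratio of CPM, ETV6-RUNX1 over LUC control, for 61 of the measured genes, with exact 95% counting intervals; the dashed line is the median of all measured genes (-0.04) and dotted lines mark 0.32 in either direction. Most points lay between 0 and -0.20, and HNRNPH2 alone lay past the lower dotted line.

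The same comparison was made among cells called in the same cell cycle phase. Phases were called from S and G2/M gene lists, none of which contains a member, in cells thinned to 8700 UMIs. G1 held 343 of 2043 thinned cells (16.8%, 15.2 to 18.5) with ETV6-RUNX1 and 232 of 1786 (12.99%, 11.5 to 14.6) in the control. The members' median log2 ratio was -0.08 in G1, -0.09 in S and -0.07 in G2/M, beside -0.03, -0.04 and -0.04 over all genes. In G1, 1 member was past 0.32 with ETV6-RUNX1 (PRPF18, whose interval of -0.11 to 0.80 held 0) where 7% of all genes were, and 3 were past -0.32 (HNRNPF, PRPF19 and PRPF4) where 10.9% were. In S no member passed in either direction, beside 2.8% higher and 6.75% lower of all genes. In G2/M, 0 were higher, beside 1.75% of all genes, and 1 was lower (HNRNPH2), beside 3.28%. Genes with fewer UMIs pass 0.32 more often through counting error, and all measured genes had a lower median level than the members. Shares of members and of all genes past 0.32, here and elsewhere, are therefore not directly comparable.

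Other parts of the splicing machinery were compared through lists of 122 further symbols. Of 50 measured spliceosome components outside the member prefixes, 11 had log2 ratios above 0, the median was -0.06, and SNRNP40, a U5 protein, was the only one past 0.32 in size (48.7 CPM with ETV6-RUNX1 and 62.9 CPM in the control, -0.37, -0.45 to -0.29). PLRG1 (-0.30), PUF60 (-0.25) and XAB2 (-0.23) followed in that list. Of 12 measured genes of snRNP assembly, 11 lay below 0 with a median of -0.14. GEMIN2, a partner of SMN, had 16.1 CPM with ETV6-RUNX1 and 21.2 CPM in the control (-0.40, -0.54 to -0.26). PRMT5 and WDR77, which methylate Sm proteins, had -0.316 and -0.271, and SNUPN, which carries snRNPs into the nucleus, -0.20. The 6 exon junction complex genes had a median of -0.12, with EIF4A3 at -0.21, MAGOH at -0.20, MAGOHB at -0.15 and RBM8A at -0.10. Of 7 measured kinases and phosphatases that can act on SR proteins the median was 0.06. In that list PPP1CA, a protein phosphatase catalytic subunit, had 174 CPM with ETV6-RUNX1 and 237 CPM in the control (-0.45, -0.49 to -0.40), and PPP1CC had -0.16. The SR protein kinases CLK3 and CLK1 had 0.13 and 0.12. The 35 measured other regulators had a median of -0.03, with CELF2 at -0.17, PTBP1 at -0.16, PCBP1 at -0.13 and SRRM2 at 0.12. Among the measured genes of these 5 lists together, 0 were past 0.32, beside 1.65% of all measured genes. Past -0.32 were 3 (SNRNP40, GEMIN2 and PPP1CA), beside 3.31% of all measured genes.

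Between cell cycle phases, most members had a somewhat larger share of UMIs in S and G2/M cells than in G1 cells. The median log2 ratio of G2/M over G1 was 0.29 for SRSF and 0.30 for HNRNP genes with ETV6-RUNX1, and 0.26 and 0.25 in the control. It was 0.11 with ETV6-RUNX1 and 0.13 in the control for SNRP genes, close to the median of all measured genes, 0.10 with ETV6-RUNX1 and 0.12 in the control. All 10 measured SRSF genes lay above 0 in both libraries, as did 15 of 19 HNRNP, 8 of 11 SNRP and 6 of 11 PRPF genes. Among all 5954 measured genes, 3321 did so, and the PRPF share was near theirs. For S over G1 the SRSF medians were 0.30 with ETV6-RUNX1 and 0.33 in the control, the HNRNP medians 0.19 with ETV6-RUNX1 and 0.18 in the control, and those of the Sm ring 0.13 with ETV6-RUNX1 and 0.21 in the control. The order of HNRNP and Sm genes in S thus differed between the libraries. In G2/M, 9 members were higher by at least 0.32 in both libraries, beside 12.4% of all genes, and 0 were lower, beside 1.6%. They included 2 of 10 SRSF, 5 of 19 HNRNP and 0 of 11 SNRP genes. None reached 1.5-fold, where 4.69% of all genes were higher and 0.47% lower. With 9 of 62, the members' share past 0.32 was near that of all genes.

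SRSF7 is an SR protein that also takes part in RNA export. In the ETV6-RUNX1 library it had 287, 370 and 409 CPM in G1, S and G2/M, and in the LUC control 335, 426 and 443 CPM. Its log2 ratio of G2/M over G1 was 0.51 (0.44 to 0.59) with ETV6-RUNX1 and 0.40 in the control. SRSF10, an SR protein regulated by dephosphorylation (entry ENSG00000188529), had 57.7, 95.6 and 86.5 CPM with ETV6-RUNX1 and 63.2, 90.1 and 82.0 CPM in the control. It thus stood highest in S in both libraries, with log2 ratios of S over G1 of 0.73 (0.56 to 0.90) with ETV6-RUNX1 and 0.51 in the control. HNRNPD, which also binds AU-rich elements, had 244, 331 and 342 CPM with ETV6-RUNX1 and 262, 321 and 338 CPM in the control. U2AF1 had 335, 436 and 443 CPM with ETV6-RUNX1 and 334, 451 and 447 CPM in the control, so S and G2/M cells were alike and above G1 in both. The other genes past 0.32 in G2/M over G1 in both libraries were SF3B3 (0.52 with ETV6-RUNX1 and 0.33 in the control), HNRNPDL (0.40 ETV6-RUNX1, 0.37 LUC), HNRNPUL2 (0.40 ETV6-RUNX1, 0.38 LUC), HNRNPH1 (0.39 ETV6-RUNX1, 0.38 LUC) and HNRNPAB (0.37 ETV6-RUNX1, 0.35 LUC).

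In S over G1, 8 members were higher by at least 0.32 in both libraries, beside 11.2% of all genes, and 0 were lower, beside 1.43%; at 1.5-fold there was no member, beside 4.64% of all genes higher and 0.302% lower. They were SRSF10, SRSF7, U2AF1, HNRNPAB, SF3A2, SRSF2, HNRNPF and SRSF1. SF3A2, a U2 snRNP protein, had log2 ratios of 0.52 with ETV6-RUNX1 and 0.38 in the control, and SRSF2 had 0.45 in ETV6-RUNX1 cells and 0.41 in control cells. SRSF1, a well-studied SR protein, had 0.36 with ETV6-RUNX1 and 0.41 in the control. HNRNPF had 0.49 with ETV6-RUNX1 and 0.34 in the control. No member differed by 0.32 between G2/M and S in both libraries, beside 3.22% higher and 1.7% lower among all genes, and none by 1.5-fold, beside 1.16% higher and 0.386% lower.

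At the other end, SNRPD2 had less in G2/M than in G1, with 618, 580 and 543 CPM in G1, S and G2/M with ETV6-RUNX1 and 640, 625 and 568 CPM in the control (log2 ratio of G2/M over G1 -0.19 with ETV6-RUNX1, -0.17 in LUC). Its ring partner SNRPB went the other way, with 543, 697 and 697 CPM with ETV6-RUNX1 and 574, 709 and 706 CPM in the control. Members of 1 ring therefore differed from each other between phases in the same direction in both libraries. SNRPF, SF3B14, HNRNPM, HNRNPK and SF3B5 were next lowest by the average of both libraries, with log2 ratios between -0.08 and 0.05 in both libraries. HNRNPA1 was the lowest of the 62 in S over G1 by the same average, at -0.09 with ETV6-RUNX1 and -0.15 in the control, followed by SF3B14, SNRPD2, PRPF4, SNRPB2 and SRSF6. HNRNPC, which binds uridine tracts, was nearly level, at 0.03 with ETV6-RUNX1 and -0.03 in the control in G2/M over G1.

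**Figure D3:**
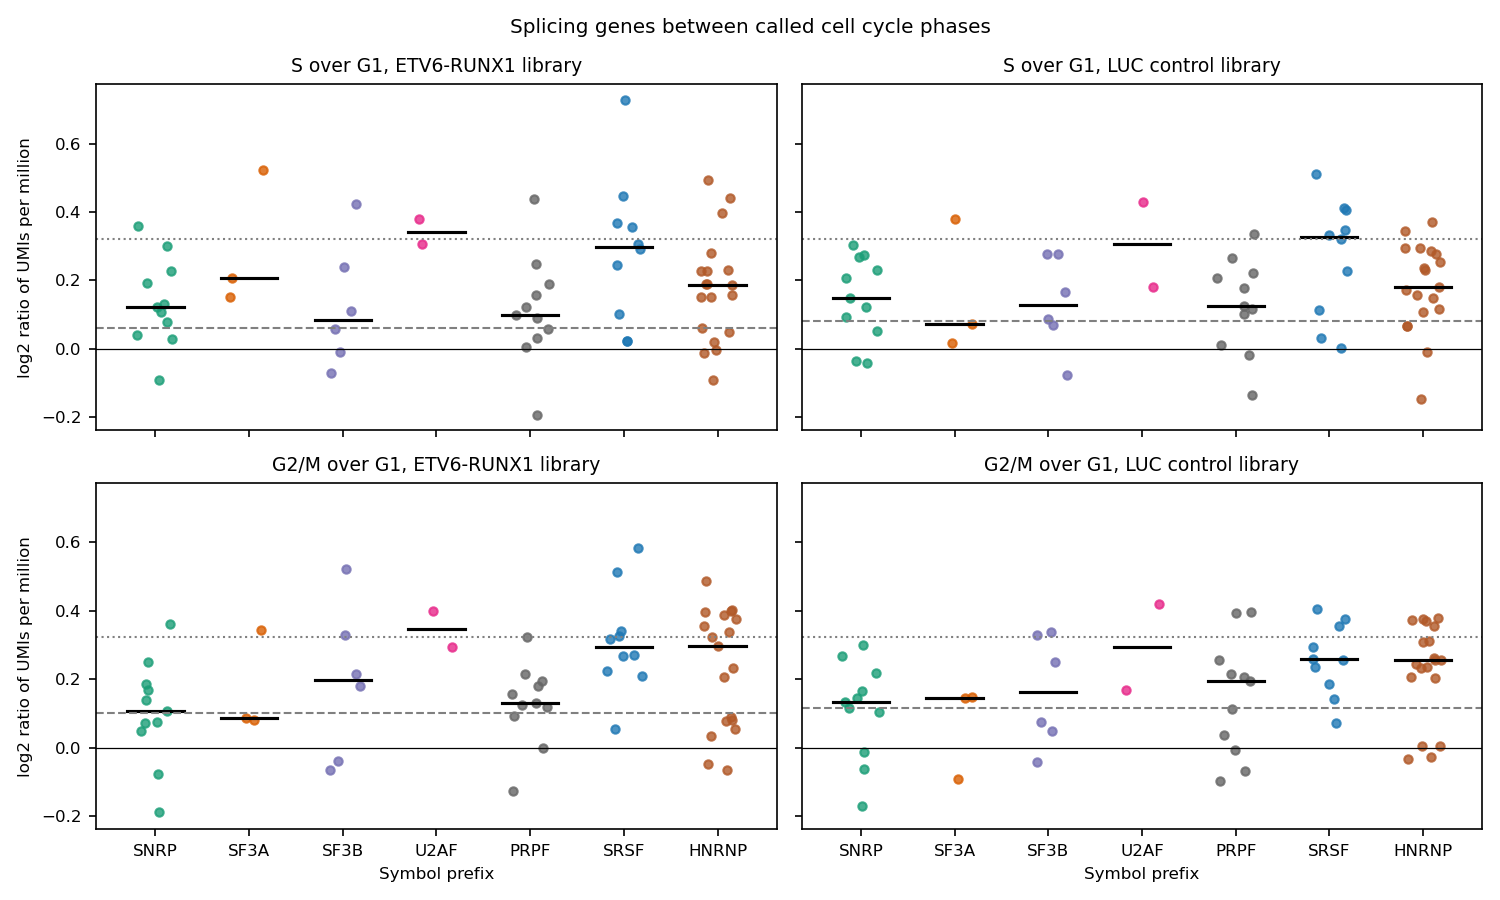
Log2 ratios of CPM for S over G1 (upper row) and G2/M over G1 (lower row) with ETV6-RUNX1 on the left and LUC control on the right; each point is a measured gene, bars are family medians, the dashed line is the median of all measured genes and the dotted line marks 0.32. SRSF points all lay above 0 in both libraries, and the SNRP medians of G2/M over G1 (0.11 ETV6-RUNX1, 0.13 LUC) lay near the dashed line.

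These ratios are shares of the UMIs of a phase, and the shares of other genes moved with them. Ribosomal protein genes gave 4076, 3840 and 3728 of 8700 thinned UMIs per cell in G1, S and G2/M with ETV6-RUNX1, and 3946, 3692 and 3596 in the control. When the totals left out ribosomal protein and mitochondrially encoded genes, the median of all genes for G2/M over G1 was -0.01 with ETV6-RUNX1 and 0.0006 in the control. On that scale the SRSF medians were 0.18 with ETV6-RUNX1 and 0.14 in the control and the HNRNP medians 0.18 in ETV6-RUNX1 cells and 0.14 in control cells, while the SNRP medians were -0.01 in ETV6-RUNX1 cells and 0.02 in control cells. Then 0 members passed 0.32 in G2/M over G1, beside 7.12% of all genes, and 2 in S over G1, beside 7.81%. Depth moved with phase too, with medians of 16494, 19118 and 22518 UMIs in G1, S and G2/M cells with ETV6-RUNX1 and 18549, 21620 and 25632 in the control. With thinned UMIs, 11 members passed for G2/M, beside 14.4% of all genes, and 10 for S, beside 12.1%. Of the thinned cells, 27.6% with ETV6-RUNX1 and 27.0% in the control lay within 0.05 of a score boundary, and without them 19 members passed for G2/M and 19 for S, beside 18.3% and 16.1% of all genes.

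Summed over the 62 measured genes, a thinned cell held 134 ± 23.4 UMIs of the 8700 with ETV6-RUNX1 and 144 ± 22.7 in the LUC control (mean ± SD over 2043 ETV6-RUNX1 and 1786 control cells, which are not replicates). By phase the means were 120, 137 and 138 UMIs in G1, S and G2/M with ETV6-RUNX1 and 130, 146 and 145 in the control. The SNRP sum followed the S score (r = 0.18 with ETV6-RUNX1, 0.20 in the control) more than the G2/M score (0.03 ETV6-RUNX1, 0.04 LUC). The HNRNP sum followed the G2/M score (0.29 with ETV6-RUNX1 and 0.25 in the control) more than the S score (0.15 ETV6-RUNX1, 0.11 LUC). The SRSF sum followed both, at 0.22 in ETV6-RUNX1 cells and 0.23 in control cells for the S score, and at 0.20 in ETV6-RUNX1 cells and 0.11 in control cells for the G2/M score. Phase scores were not the only correlates. With the log2 depth of the cell before thinning, the SNRP sum had r = 0.25 with ETV6-RUNX1 and 0.13 in the control. The sum of all members had 0.20 with ETV6-RUNX1 and 0.08 in the control. With the percentage of mitochondrially encoded UMIs, the sum of all members had -0.30 with ETV6-RUNX1 and -0.28 in the control. These coefficients are over cells of 1 library each, which share a culture and a library.

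Counting error made up much of the cell-to-cell variation of single members, and at such low counts it can hide differences in level. For the 36 members with a mean of at least 1 UMI per thinned cell in both libraries, the median ratio of variance to mean was 1.21 with ETV6-RUNX1 and 1.18 in the control, where counting alone gives 1. Over all 895 genes at that floor it was 1.17 with ETV6-RUNX1 and 1.14 in the control, and 9.83% of these genes with ETV6-RUNX1 and 8.60% in the control, but 0 of the 36 members, were above 2. Without ribosomal protein and mitochondrially encoded genes (802 genes) the median was 1.15 with ETV6-RUNX1 and 1.12 in the control. Of those genes, 7.73% with ETV6-RUNX1 and 6.23% in the control were above 2. Among the members HNRNPA2B1 had the highest ratio, 1.77 with ETV6-RUNX1 and 1.70 in the control. Its mean was 5.59 UMIs in ETV6-RUNX1 cells and 6.17 in control cells. SRSF7, HNRNPA1, HNRNPH1, SRSF3 and HNRNPDL followed, with 1.63, 1.53, 1.53, 1.43 and 1.41 in ETV6-RUNX1 cells and 1.55, 1.46, 1.37, 1.43 and 1.40 in control cells.

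The members nevertheless co-varied across cells, weakly and mostly in the same direction. The median Pearson r over the 630 pairs of the 36 members, from log2(UMIs + 1) in thinned cells, was 0.05 with ETV6-RUNX1 and 0.04 in the control, and 91.1% of pairs with ETV6-RUNX1 and 87.8% in the control were above 0. Over all 895 genes the median was 0.009 in ETV6-RUNX1 cells and 0.007 in control cells, with 58.3% of pairs above 0 with ETV6-RUNX1 and 56.6% in the control. Without ribosomal protein and mitochondrially encoded genes (802 genes) it was 0.0166 with ETV6-RUNX1, with 66.6% of pairs above 0, and 0.0126 in the control, with 63.9%. Pairs within the Sm ring had the highest median, 0.12 with ETV6-RUNX1 and 0.10 in the control. Pairs within SRSF, within HNRNP and between families had medians of 0.06, 0.07 and 0.05 in ETV6-RUNX1 cells and 0.08, 0.06 and 0.04 in control cells. The 3 pairs within SF3B had -0.0055 with ETV6-RUNX1, with 33.3% above 0, and 0.0446 in the control. Counting error lowers r for genes with few UMIs, and most Sm genes were among the more abundant members. Family medians are therefore not directly comparable. Over the 15 members with a mean of at least 3 UMIs, the median was 0.097 with ETV6-RUNX1 and 0.081 in the control. Over all 300 genes at that floor it was 0.0006 with ETV6-RUNX1 and 0.0017 in the control. With the mean of each phase removed, the medians over all members were 0.05 with ETV6-RUNX1 and 0.04 in the control.

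The 8 pairs with the highest r, averaged over the libraries, were as follows. HNRNPA2B1 was in 3 of them, with HNRNPD (r = 0.23 with ETV6-RUNX1 and 0.20 in the control), HNRNPC (0.20 ETV6-RUNX1, 0.19 LUC) and HNRNPA3 (0.19 ETV6-RUNX1, 0.19 LUC). SRSF7 was also in 3, with SRSF3 (0.23 ETV6-RUNX1, 0.18 LUC), HNRNPDL (0.20 ETV6-RUNX1, 0.16 LUC) and SRSF2 (0.16 ETV6-RUNX1, 0.20 LUC). The other 2 were SNRPE with SNRPF (0.23 ETV6-RUNX1, 0.16 LUC) and HNRNPDL with SRSF3 (0.21 ETV6-RUNX1, 0.16 LUC). Against the sum of the other members, HNRNPA2B1 stood highest, at 0.40 with ETV6-RUNX1 and 0.37 in the control. HNRNPA1, the most abundant member, stood lowest, at 0.05 in ETV6-RUNX1 cells and 0.02 in control cells, and SNRPD2 was next to last in the control at 0.06. In the same cells HNRNPA1 had an r of about 0 with the ribosomal protein sum (-0.03 with ETV6-RUNX1 and 0.02 in the control), whereas HNRNPA2B1 had -0.38 in ETV6-RUNX1 cells and -0.34 in control cells.

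**Figure D4:**
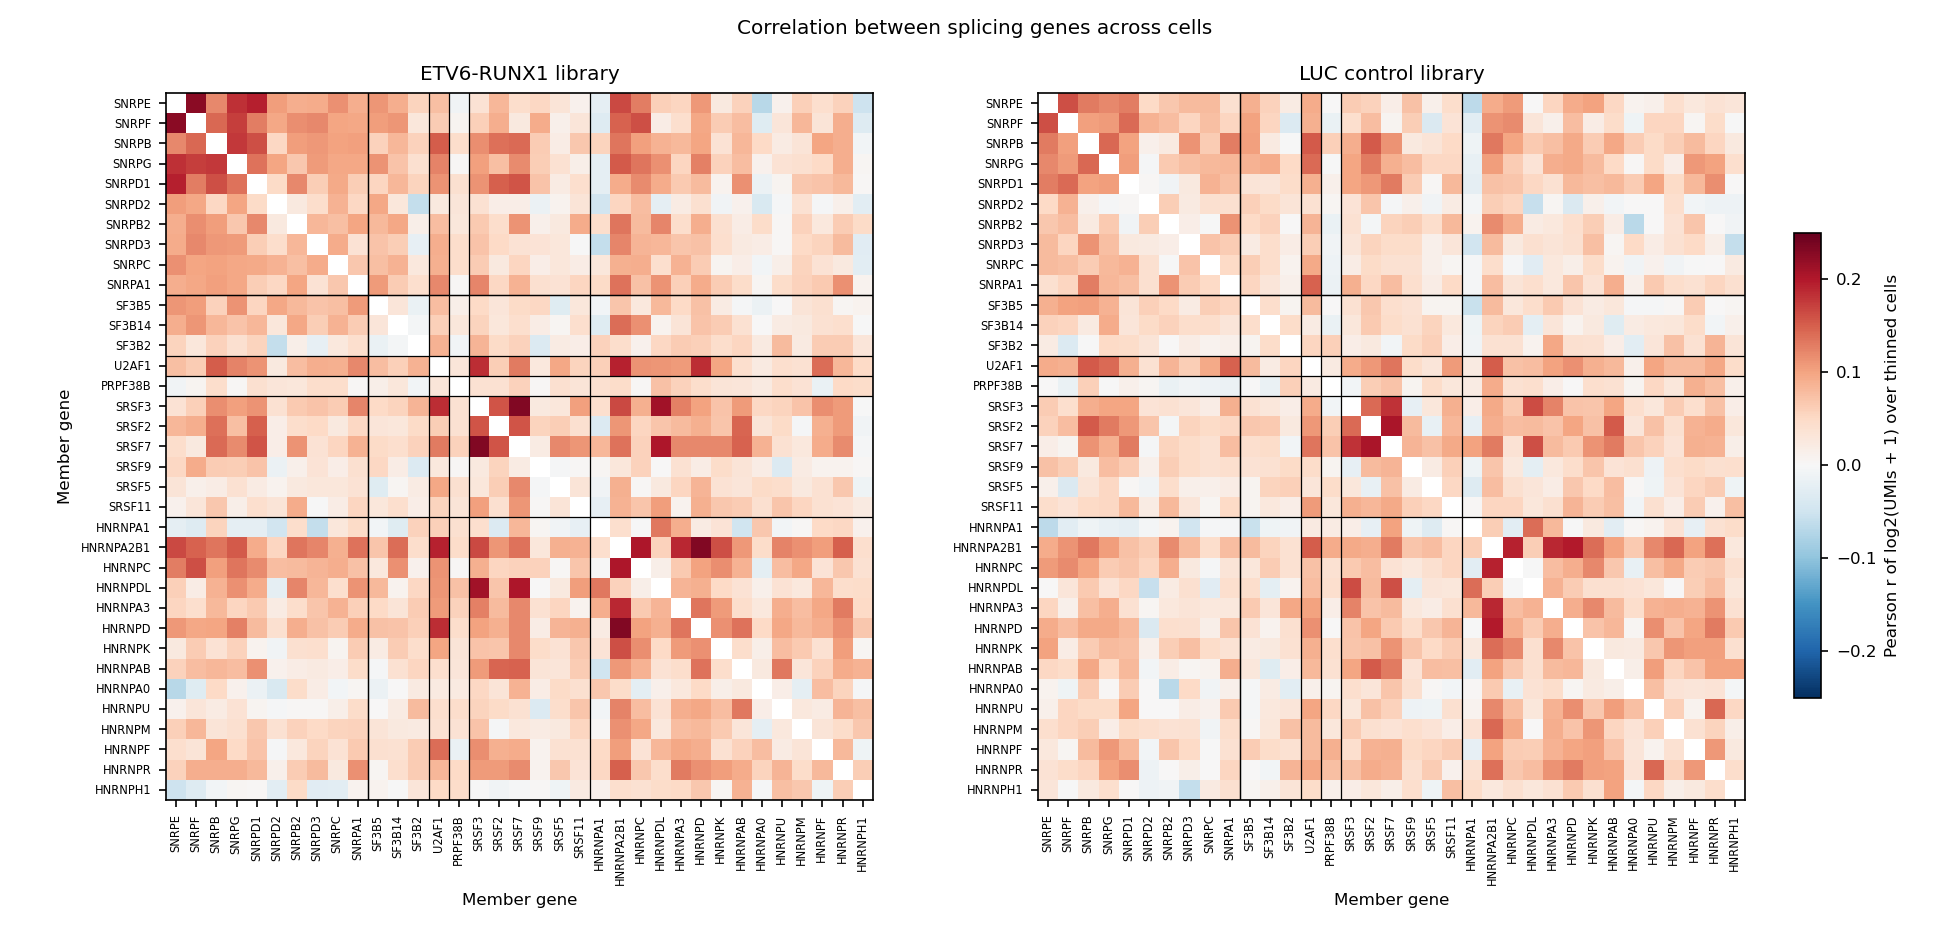
Pearson r of log2(UMIs + 1) between 35 of the members with at least 1 UMI per thinned cell, over 2043 ETV6-RUNX1 cells (left) and 1786 LUC control cells (right); lines divide the families SNRP, SF3B, U2AF, PRPF, SRSF and HNRNP from top to bottom. Many pairs of Sm genes, the SRSF3, SRSF2 and SRSF7 square and many pairs of HNRNPA2B1 are among the darkest in both. In the control SNRPD2 is pale with some ring partners, such as SNRPG (-0.003) and SNRPD1 (0.002). Most of the HNRNPA1 row is pale, but not its pair with HNRNPDL (0.13 ETV6-RUNX1, 0.14 LUC).

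The sums of the largest families co-varied more strongly than most single genes. Larger sums carry relatively less counting error, so coefficients of large sums, small sums and single genes cannot be compared directly. SRSF and HNRNP sums had r = 0.36 with ETV6-RUNX1 and 0.32 in the control, SNRP and HNRNP sums 0.30 in ETV6-RUNX1 cells and 0.26 in control cells, and SNRP and SRSF sums 0.28 in ETV6-RUNX1 cells and 0.27 in control cells. The members' sum went with that of the other spliceosome components (0.56 with ETV6-RUNX1 and 0.48 in the control) and with the exon junction complex (0.44 ETV6-RUNX1, 0.38 LUC), and less with those kinases and phosphatases (0.17 ETV6-RUNX1, 0.24 LUC). Sums of the small families had lower coefficients, such as SF3A with U2AF at 0.03 in ETV6-RUNX1 cells and 0.05 in control cells. Against ribosomal protein genes the members' sum had -0.64 with ETV6-RUNX1 and -0.60 in the control. All cells were thinned to the same total, so a gene group that takes up much of it, as ribosomal protein genes do, is tied to the rest by construction. Among non-members, the 10 genes most like the members' sum over these cells were HSP90AA1 (r = 0.57 with ETV6-RUNX1 and 0.52 in the control), HMGB1 (0.52 ETV6-RUNX1, 0.47 LUC), PTMA (0.48 ETV6-RUNX1, 0.47 LUC), HSPE1, TUBA1B, H2AFZ, HSP90AB1, PA2G4, RAN and FABP5 (the last at 0.43 ETV6-RUNX1, 0.33 LUC). The ribosomal protein gene RPS19 was the most opposite, at -0.52 with ETV6-RUNX1 and -0.53 in the control.

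The strongest pair among the SR proteins and the strongest among the hnRNPs are shown by the 300 bases around their transcription starts (250 before and 50 after), from RefSeq on GRCh38.p14. A set of 5 short motifs was searched on both strands, and matches are in capitals: the motif of RUNX factors (TGTGGT), that of ETS factors (CCGGAA), the CCAAT box (those letters), the GC box (GGGCGG) and the TATA box (TATAAA). The sequences are 5′ to 3′ on the strand of the gene.
SRSF7, chr2:38751445-38751744, minus strand: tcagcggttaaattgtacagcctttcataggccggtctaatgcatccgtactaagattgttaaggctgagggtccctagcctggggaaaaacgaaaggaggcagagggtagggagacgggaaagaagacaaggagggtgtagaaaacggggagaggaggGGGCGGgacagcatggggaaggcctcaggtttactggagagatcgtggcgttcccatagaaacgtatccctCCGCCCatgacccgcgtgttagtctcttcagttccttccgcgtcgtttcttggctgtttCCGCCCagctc
SRSF3, chr6:36594112-36594411, plus strand: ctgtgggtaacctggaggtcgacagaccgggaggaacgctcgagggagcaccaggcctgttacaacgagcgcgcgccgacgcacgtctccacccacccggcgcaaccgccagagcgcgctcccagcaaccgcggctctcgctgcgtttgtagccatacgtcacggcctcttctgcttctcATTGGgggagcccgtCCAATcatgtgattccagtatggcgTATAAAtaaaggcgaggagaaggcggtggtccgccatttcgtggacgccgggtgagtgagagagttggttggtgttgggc
HNRNPD, chr4:82373942-82374241, minus strand: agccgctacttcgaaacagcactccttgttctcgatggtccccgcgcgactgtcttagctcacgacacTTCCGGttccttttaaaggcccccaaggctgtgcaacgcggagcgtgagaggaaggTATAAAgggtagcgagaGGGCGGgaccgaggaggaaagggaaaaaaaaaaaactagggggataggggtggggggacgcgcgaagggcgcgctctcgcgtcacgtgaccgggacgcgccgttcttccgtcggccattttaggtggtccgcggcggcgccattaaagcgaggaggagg
HNRNPA2B1, chr7:26200697-26200996, minus strand: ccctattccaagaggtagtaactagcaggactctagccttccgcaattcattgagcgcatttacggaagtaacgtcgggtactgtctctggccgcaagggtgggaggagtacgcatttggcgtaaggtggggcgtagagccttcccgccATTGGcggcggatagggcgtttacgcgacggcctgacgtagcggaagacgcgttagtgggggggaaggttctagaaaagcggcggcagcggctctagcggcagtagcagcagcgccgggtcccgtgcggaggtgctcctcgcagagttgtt

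In these windows SRSF7 had 3 GC boxes and none of the other motifs, while SRSF3 had 2 CCAAT boxes and 1 TATA box. HNRNPD had 1 ETS, 1 GC box and 1 TATA match, and HNRNPA2B1 had 1 CCAAT box. Neither pair therefore shared a motif among those searched. Windows were found for 55 of the 62 measured members. The RUNX motif was in 12.7% of them, in 8.52% of the 4979 windows of measured genes and in 13.1% of all 27305 windows of that length. The ETS motif was in 43.6% of the members' windows, 35.9% of those of measured genes and 17.6% of all. CCAAT was in 41.8%, 39.7% and 35.7% of these sets, the GC box in 61.8%, 72.2% and 44.6%, and TATAAA in 10.9%, 5.10% and 12.0%. A match of so few letters is a description and not a binding site.

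One member differed most with the depth of the cell, its UMI total, in ranges of depth chosen after the values were seen. HNRNPH1, an hnRNP that binds G-rich RNA and is closely related to HNRNPH2, had about the same level in both libraries (163 CPM with ETV6-RUNX1 and 158 CPM in the control), but took a larger share of the UMIs in shallow cells of both. In the ETV6-RUNX1 library it had 335 CPM (306 to 366) in the 224 cells under 8700 UMIs, then 295, 209, 151 and 139 CPM in cells of 8700 to 11000, 11000 to 15000, 15000 to 20000 and 20000 to 30000 UMIs, and 159 CPM in cells above. In the LUC control it had 390 CPM (337 to 449) in the 84 cells under 8700 UMIs, then 275, 209, 146 and 148 CPM in the same steps and 157 CPM above 30000 UMIs. The libraries lay on the same course, with overlapping intervals in each of these ranges. The share was lower at each step up to 15000 to 20000 UMIs and changed little beyond.

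Cells under 8700 UMIs over cells above 20000 UMIs gave HNRNPH1 a log2 ratio of 1.22 with ETV6-RUNX1, interval 1.079 to 1.352, and of 1.37 in the LUC control, interval 1.15 to 1.58. These ranges of depth were chosen after the values were seen. HNRNPH1 was the only member past 1.5-fold higher in both libraries, where 3.29% of all genes were, and no member was 1.5-fold lower, where 1.71% were. Of the 2032 genes at 50 CPM or more it ranked 3 by this ratio with ETV6-RUNX1 and 5 in the control, and over all 5954 measured genes it ranked 25 with ETV6-RUNX1 and 30 in the control. At 0.32, 3 members were higher in shallow cells (HNRNPH1, SRSF6 and PRPF18) beside 11.7% of all genes, and 4 were lower (SNRPD3, SNRPF, SF3A3 and SRSF4) beside 7.76%. PRPF18 rested on 33 UMIs in shallow cells with ETV6-RUNX1 and 12 in the control, with intervals that held 0 in both, and the control intervals of SF3A3 and SRSF4 also held 0. SRSF6 had 101 CPM in shallow and 68.1 CPM in deep cells with ETV6-RUNX1, and 110 and 78.9 CPM in the control. SNRPD3 had 187 and 267 CPM in shallow and deep cells with ETV6-RUNX1, and 204 and 283 CPM in the control. The median log2 ratio of the members was -0.14 with ETV6-RUNX1 and -0.03 in the control, beside 0.02 with ETV6-RUNX1 and 0.03 in the control over all genes.

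Mitochondrially encoded genes gave a median of 4.57% of UMIs in the cells under 8700 UMIs with ETV6-RUNX1 and 4.24% in the control, near the 4.49% with ETV6-RUNX1 and 4.37% in the control at 20000 to 30000 UMIs. Depth and phase moved together: of the shallowest tertile of kept cells 21.7% with ETV6-RUNX1 and 25.5% in the control were called G2/M, against 62.8% of the deepest with ETV6-RUNX1 and 67.6% in the control. The shallowest tertile held all cells under 8700 UMIs, 224 with ETV6-RUNX1 and 84 in the control. They had no phase call and counted as not G2/M, so these shares overstate the contrast. In tertiles of the kept cells by depth, the log2 ratio of HNRNPH1 in the deepest over the shallowest tertile was -0.75 with ETV6-RUNX1 and -0.28 in the control. Tertiles were cut within each library, so their depths differed. The shallowest had medians of 11170 UMIs with ETV6-RUNX1 and 15085 in the control, and the deepest 26418 and 30084. Ratios by tertile therefore cannot be compared directly between the libraries. Within phases the comparison leaves out the cells under 8700 UMIs, which had no phase call. Among cells called G2/M the HNRNPH1 ratio was -1.05 with ETV6-RUNX1 and -0.47 in the control. Among S cells it was -0.65 with ETV6-RUNX1 and -0.30 in the control. Among G1 cells it was -0.35 with ETV6-RUNX1 and 0.07 in the control, which had 232 G1 cells in all. The direction thus did not hold in G1 cells of the control. With a filter of 2000 genes and 5% mitochondrial UMIs the ratio was -0.55 with ETV6-RUNX1 and -0.12 in the control. In the tertiles of all kept cells, SRSF10 (entry ENSG00000188529) lay slightly lower than HNRNPH1 in the control, at -0.30, and had -0.12 with ETV6-RUNX1. By these tertiles, 0 members were past 0.32 and 0 past -0.32 in both libraries, beside 2.72% and 3.19% of all genes. HNRNPH1 also varied between cells of equal thinned depth, as given above, and was higher in G2/M than in G1 cells. Thinning did not remove the link to depth. In thinned cells its r with the log2 depth before thinning was -0.14 with ETV6-RUNX1 and -0.04 in the control. Whether shallow barcodes were smaller cells or cells that had lost RNA was not tested.

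**Figure D5:**
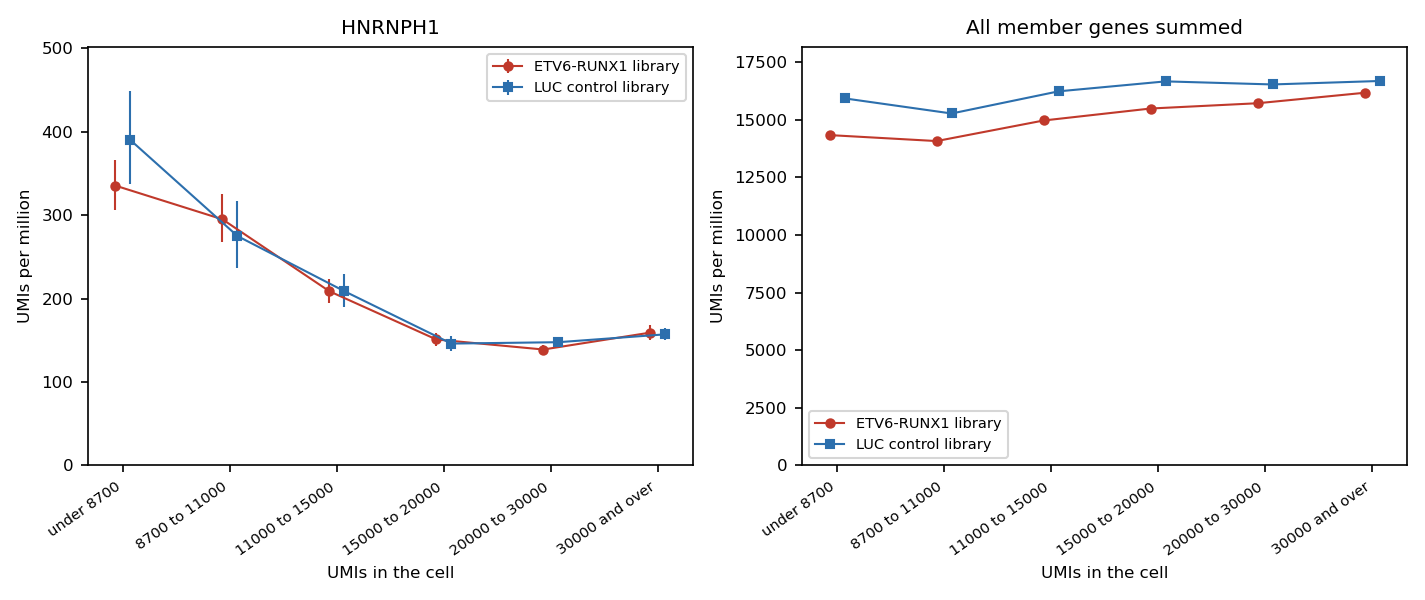
CPM of HNRNPH1 with exact 95% Poisson intervals (left) and of all members summed (right) in kept cells grouped by their UMI total, for ETV6-RUNX1 (circles) and LUC control (squares). HNRNPH1 was 335 CPM with ETV6-RUNX1 and 390 CPM in the control under 8700 UMIs, and 139 CPM with ETV6-RUNX1 and 148 CPM in the control at 20000 to 30000 UMIs, while the summed members were between 14077 and 16173 CPM with ETV6-RUNX1 and between 15274 and 16685 CPM in the control.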

How the data were processed

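Per the labels' protocols, poly-A RNA of single cells was tagged on the 10X GemCode system. Per the submitters' processing notes, Cell Ranger 3.0.2 and genome build hg19 were used; the sources used here do not say how reads from overlapping or highly similar genes were assigned. What the authors deposited are UMI counts, 1 matrix per library, not normalized. The members and lists were chosen with earlier results of these data known.

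Counts were summed over kept cells and scaled by the library's UMIs, with exact intervals of a ratio of Poisson counts. The floor of 10 CPM equals 440 UMIs with ETV6-RUNX1 and 428 in the control. With 1 library per construct no test was made, and genes were counted past a log2 ratio of 0.32. Phases were called with scanpy 1.11.5 in cells thinned to 8700 UMIs, which left out 224 cells with ETV6-RUNX1 and 84 in the control, with scores set against genes seen in at least 3 cells. Doublets were left in; Scrublet called 14 cells (0.618%) with ETV6-RUNX1 and 16 (0.856%) in the control. TMM factors came from edgeR 4.0.16. Named genes were, per family, the 3 with highest CPM and up to 3 with the largest ratio; across families, the 6 extremes between phases and in variance, the 8 best pairs and the 10 most like non-members; and up to 4 genes of each further list. SF3B1 and SNRPB between phases were named, and HNRNPH1 by ranges of depth was added, after their values were seen. Of the listed further splicing symbols, 3 matched no gene in the matrices, among them HNRPDL and HNRPLL, which are older symbols of members. The ratio, interval and correlation code was tested on simulated data. Intervals leave out the spread between cells, so they are too short where cells differ. For 1 measured PRPF gene, single values are not reported here; it stays in the counts and medians.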

Additional observations from a re-analysis of the deposited data

How the results depend on the processing

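The members' median ratio between libraries stayed below 0 under all alternatives run, from -0.09 to -0.03. The count of 1 member past -0.32 with ETV6-RUNX1 became 0 with TMM scaling, median-of-ratios scaling, totals without ribosomal protein and mitochondrially encoded genes, thinned cells, phases matched, a floor of 50 CPM or 1.5-fold, and 2 with a floor of 1 CPM. The counts of members past 0.32 in both libraries were 9 for G2/M over G1 and 8 for S over G1. They became 19 and 19 with cells near a score boundary left out, 0 and 2 with totals without ribosomal protein and mitochondrially encoded genes, 5 and 4 with 2000 genes and 5% mitochondrial UMIs (12.0% and 9.82% of all genes), 0 and 0 at 1.5-fold, and 4 and 5 with a score pool of genes in at least 10 cells (9.79% and 8.92% of all genes), which was added after seeing the data. The median correlation was 0.104 with ETV6-RUNX1 and 0.0967 in the control in unthinned cells. The counts by depth, 0 higher and 0 lower in deep cells, became 4 and 3 with cells over 20000 UMIs against cells under 8700 UMIs. For each of these changes the cause was not tested, apart from stricter sizes and floors that leave fewer genes to pass. No paired analysis was possible because there was 1 library per construct, and leaving out a replicate was not possible for the same reason. Depth limited the rarer members: at 10 CPM an ETV6-RUNX1 sum held 440 UMIs, and cell-level coefficients were limited to the 36 more abundant genes.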

Other observations

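Barcodes that failed the filters held the members at nearly the share of kept cells. As a share of UMIs outside the mitochondrially encoded genes, the members made up 1.53% (1.48 to 1.58) in the 236 barcodes left out and 1.63% in kept cells with ETV6-RUNX1. In the LUC control they made up 1.62% (1.58 to 1.67) in the 333 barcodes left out and 1.73% in kept cells.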
